A study of Mus musculus with 2 samples.

Results

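Myostatin (Mstn), its relatives Gdf11 and Inhba, the follistatin-type proteins Fst, Fstl1 and Fstl3, and the activin receptors Acvr2a, Acvr2b and Acvr1b were followed in embryonic mouse heart with and without the splicing factor Srsf10. These 9 genes were taken by name from 17646 listed genes, and the set was selected on the RPKM of Mstn, which was higher in the knockout library. The Mstn difference is therefore a description and not a finding. The tested library came from the heart of SRSF10-/- embryos and the other from the heart of WT embryos. Both were on a BALB/c background and taken at embryonic day 13.5, and each group had 1 library. The labels do not give how many embryos, or of which sex, stood behind a library, nor how the allele was made.

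Ligands of this family are secreted as precursors, and cleavage by furin-type proteases frees a mature carboxy-terminal part that acts as a dimer. The dimer binds a type II receptor (Acvr2a or Acvr2b), which activates a type I receptor such as Acvr1b, and the signal passes to the nucleus through SMAD2 and SMAD3 with SMAD4. Follistatin and its relative Fstl3 bind the ligands outside the cell and block them. Myostatin is best known for limiting the growth of skeletal muscle, and it is also made at low level by heart muscle.

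The knockout library held 38.9 M uniquely mapped reads and the wild-type library 39.6 M. Srsf10 itself had 212 reads in the knockout library, against 5245 in the wild-type library. The heart label was checked on 9 cardiomyocyte markers, all of which were expressed, with a summed level of 16094 RPKM in the knockout library and 17453 RPKM in the wild-type library. RPKM are reads per kilobase of the listed gene length and per M (1e6) reads. The 4 Y-linked genes Ddx3y, Eif2s3y, Kdm5d and Uty had 7 reads together in the knockout library, against 2943 in the wild-type library, so sex and genotype cannot be told apart in any value below. Since each group has 1 library, no difference could be checked on replicates and no test was run. The 95% intervals are exact and cover counting error only. They treat reads as independent molecules, which reads without molecular identifiers need not be.

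Mstn and Gdf11 are the closest relatives in the set, and only uniquely mapped reads were counted, so shared sequence was looked for in the GENCODE M21 transcripts. No 31-base word of the longest Mstn transcript occurred in a transcript of any other gene, and 1 of 4032 words of Gdf11 did.

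Mstn (ENSMUSG00000026100, chromosome 1) had 1387 reads in the knockout library, against 385 in the wild-type library. Its level was 13.3 RPKM (12.6 to 14.02) in the knockout heart and 3.62 RPKM (3.27 to 4.005) in the wild-type heart. The ratio of reads per library read was 3.67 (3.28 to 4.12), and the log2 ratio of RPKM + 1 was 1.63. Among 12329 expressed genes, those at 1 RPKM or more in either library, this ratio ranked 5 from the highest. Its reads covered 97.39% of the listed 2682 bases in the knockout library and 95.3% in the wild-type library, so both libraries had reads along nearly the whole gene. No other gene overlaps Mstn in the GENCODE M21 annotation.

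**Figure D1:**
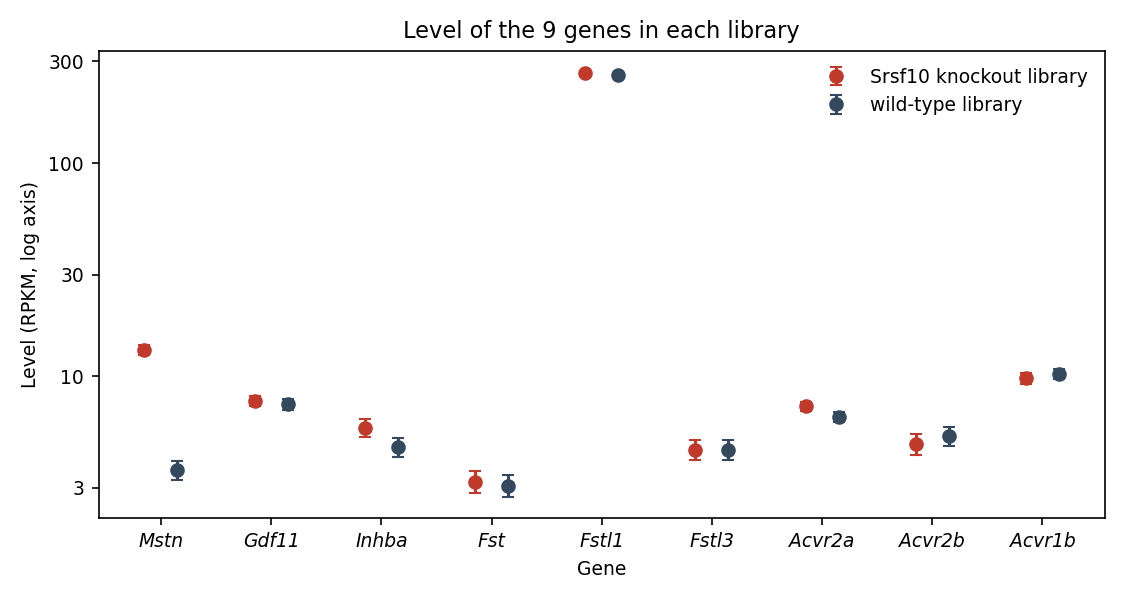
Level of each of the 9 genes in RPKM on a log axis, in the knockout library (red, left of each pair) and the wild-type library (dark, right); bars are exact 95% intervals of the count. Mstn sits at 13.3 RPKM in the knockout library and 3.62 RPKM in the wild-type library, while the pairs of the other genes lie close together and Fstl1 lies far above the rest.

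Of the other ligands in the set, Gdf11 was at nearly the same level in both libraries and Inhba was higher in the knockout library. Gdf11, which patterns the embryonic axis, had 1209 reads (7.65 RPKM) in the knockout library, against 1192 reads (7.41 RPKM) in the wild-type library. The ratio was 1.03 (0.953 to 1.12), and this interval includes 1. Inhba, which encodes the subunit of activin A, had 436 reads (5.73 RPKM) in the knockout library and 360 reads (4.64 RPKM) in the wild-type library. It was 1.23-fold higher in the knockout library (1.07 to 1.42), a difference beyond counting error but one that 1326 of the 12329 genes reached or passed on log2(RPKM + 1). On the listed lengths, Mstn was the highest of these ligands per length in the knockout heart and the lowest in the wild-type heart. The place of Inhba depends on its length: divided by its longest GENCODE M21 transcript instead, its reads would give 1.75 RPKM in the knockout heart and 1.42 RPKM in the wild-type heart, below Mstn in both. The Mstn level was 1.74 times that of Gdf11 in the knockout heart and 0.489 times in the wild-type heart.

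The follistatin-type genes did not follow Mstn. Fst, which encodes follistatin, the main antagonist of activins and myostatin, had 292 reads (3.21 RPKM) in the knockout library and 285 reads (3.08 RPKM) in the wild-type library, with a ratio of 1.04 (0.883 to 1.23). Fstl3, an antagonist found with circulating myostatin, had 345 reads (4.54 RPKM) in the knockout library and 350 reads (4.52 RPKM) in the wild-type library, with a ratio of 1.004 (0.863 to 1.17). The interval of each ratio includes 1.

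Fstl1, a secreted glycoprotein of mesenchyme that carries a follistatin domain but is not a classical activin antagonist, was by far the most abundant of the 9 genes. It had 39030 reads (265 RPKM) in the knockout library and 38829 reads (259 RPKM) in the wild-type library. The ratio of 1.02 (1.01 to 1.04) is the most precise of the set because of this depth. Fibroblast and cushion mesenchyme markers were lower in the same knockout library in 7 of 7 genes, beside 6386 of 12329 over all expressed genes. The markers summed to 602 RPKM in the knockout heart and 856 RPKM in the wild-type heart. None of these markers was at 0 in either library, and their part in the Fstl1 value was not tested. In bulk tissue, fewer cells of a type and less RNA per cell cannot be told apart.

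The receptor genes lay within 1.3-fold. Acvr2a, a type II receptor of activins, had 1598 reads (7.23 RPKM) in the knockout library and 1454 reads (6.46 RPKM) in the wild-type library, a ratio of 1.12 (1.04 to 1.20). Its gene overlaps Orc4, a replication origin factor on the opposite strand, with which it shares 416 of its 5656 31-base words. Orc4 had 2003 reads in the knockout library, against 1575 in the wild-type library, a ratio of 1.295, and since the use of strand in counting is not given, reads of the shared stretch cannot be assigned to either gene. Acvr2b, the type II receptor that myostatin binds most strongly, had 323 reads (4.80 RPKM) in the knockout library and 358 reads (5.23 RPKM) in the wild-type library. It was 1.09-fold lower in the knockout library, with an interval of 0.933 to 1.27 that includes 1. Acvr1b, the type I activin receptor ALK4, had 1247 reads (9.79 RPKM) in the knockout library and 1331 reads (10.3 RPKM) in the wild-type library, 1.05-fold lower (0.969 to 1.13), an interval that also includes 1. The type II receptors lay on either side of no difference, Acvr2a above and Acvr2b below.

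**Figure D2:**
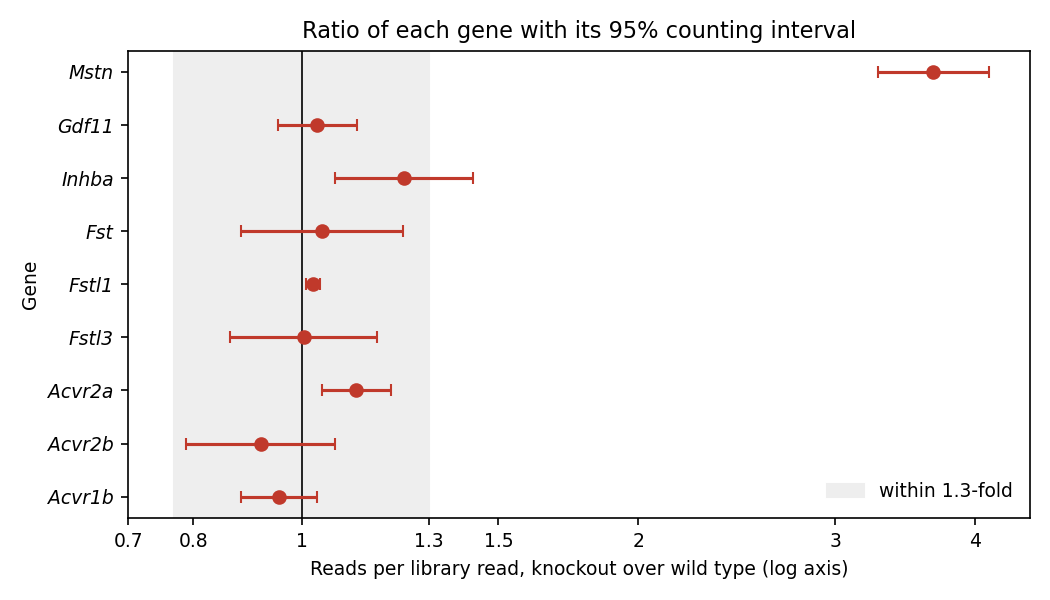
Ratio of reads per library read, knockout over wild type, on a log axis for each gene, with exact 95% counting intervals; the grey band spans ratios within 1.3-fold. Mstn stands at 3.67, and the other 8 points lie inside the band, with Inhba nearest its edge at 1.23.

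Of the 9 genes, 1 was at least 1.5-fold higher in the knockout library on log2(RPKM + 1), against 1.52% of all expressed genes, and that gene is Mstn, for which the set was chosen. None was at least 1.5-fold lower, against 1.44% of all expressed genes, and no test across genes was run. The other 8 genes had log2 ratios between -0.10 and 0.25 with a median of 0.04, and over all 12329 genes the median was -0.01 with quartiles of -0.14 and 0.13. At least 1.3-fold differences either way were seen in 9.65% of all expressed genes and in none of these 8. All 9 genes passed the expression filter in both libraries, so that it removed none of them.

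**Figure D3:**
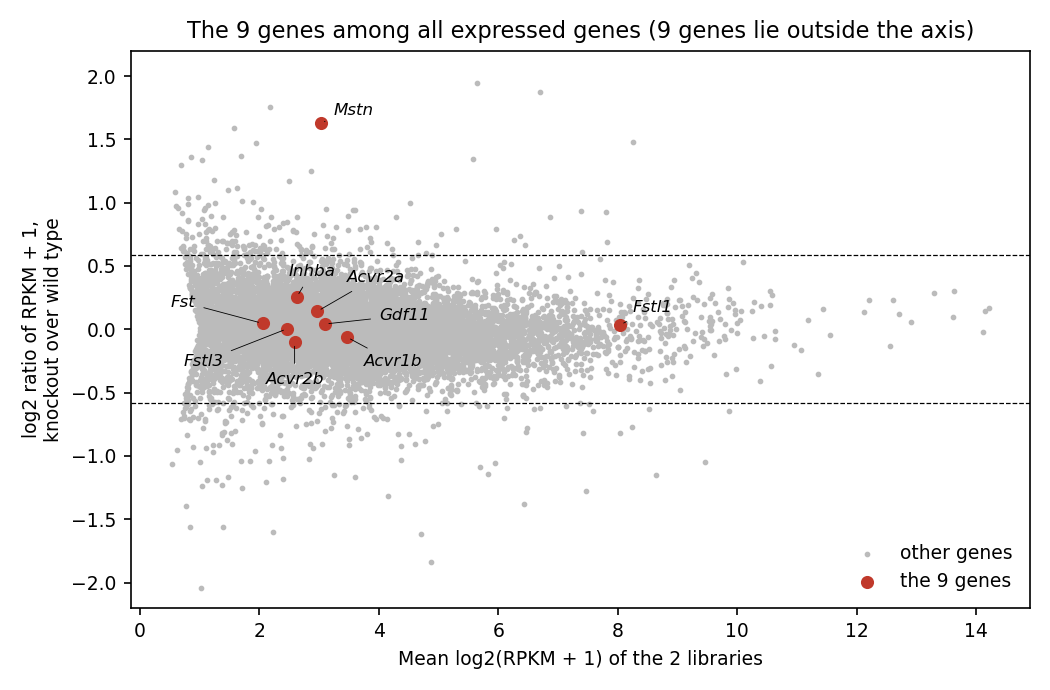
Log2 ratio of RPKM + 1, knockout over wild type, against the mean log2(RPKM + 1) of both libraries for all expressed genes (grey) and the 9 genes (red); dashed lines mark 1.5-fold. Mstn lies at 1.63, above the upper dashed line, and the other 8 lie within the bulk between -0.10 and 0.25.

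By level per listed length, Fstl1 came first in both hearts and Fst last. In the knockout heart the order below Fstl1 was Mstn, Acvr1b, Gdf11, Acvr2a, Inhba, Acvr2b, Fstl3 and Fst. Counting error does not separate Gdf11 from Acvr2a (7.65 and 7.23 RPKM) or Acvr2b from Fstl3 (4.80 and 4.54 RPKM) there. In the wild-type heart it was Acvr1b, Gdf11, Acvr2a, Acvr2b, Inhba, Fstl3, Mstn and Fst. Counting error does not separate Acvr2b from Inhba (5.23 and 4.64 RPKM) or Inhba from Fstl3 (4.64 and 4.52 RPKM) in the wild-type heart. Mstn thus held place 2 in the knockout heart and place 8 in the wild-type heart on the listed lengths. The listed length of Inhba is 1957 bases and that of Acvr2b 1729 bases, while their longest GENCODE M21 transcripts have 6390 and 3175 bases. Divided by the longest transcripts, an alternative added after the data were seen, Mstn would still follow Fstl1 in the knockout heart, but in the wild-type heart it would lie above Acvr2b, Fst and Inhba at 3.59 RPKM, and Inhba would be last in both hearts.

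The levels of ligands and inhibitors can also be set side by side within each heart. Mstn, Gdf11 and Inhba summed to 26.7 RPKM in the knockout heart and 15.7 RPKM in the wild-type heart, while Fst and Fstl3 summed to 7.75 RPKM in the knockout heart and 7.60 RPKM in the wild-type heart. The ligand sum was 3.44 times the inhibitor sum in the knockout heart and 2.06 times in the wild-type heart. The ligand sum holds Mstn, on whose difference the set was selected, so this contrast is a description and not a finding. Without Mstn the ligand sum was 1.73 times the inhibitor sum in the knockout heart and 1.59 times in the wild-type heart. These sums also rest on the listed lengths: on the longest transcripts the ligand sum would be 3.18 times the inhibitor sum in the knockout heart and 1.78 times in the wild-type heart, and without Mstn 1.32 times in the knockout heart and 1.26 times in the wild-type heart. The type II receptors Acvr2a and Acvr2b summed to 12.03 RPKM in the knockout heart and 11.7 RPKM in the wild-type heart. These are RNA levels and do not measure processed or free ligand. Fstl3 gives 4.54 RPKM of the inhibitor sum in the knockout heart and 4.52 RPKM in the wild-type heart. It shares 58.5% of its 31-base words with the overlapping gene Prss57, so the inhibitor sums are less certain.

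Of 12 other ligands of this branch and its inhibitors, 9 were listed and 4 expressed. Of these 4, 1 had a log2 ratio above 0 and 3 below, beside 6386 of 12329 below over all expressed genes. The 4 genes had a median of -0.21, and none was past 1.5-fold. Tgfb2, a ligand for cushion formation in the heart valves and the most abundant of them, had 3831 reads (20.9 RPKM) in the knockout library, against 5355 reads (28.6 RPKM) in the wild-type library. It was 1.37-fold lower in the knockout library (1.32 to 1.43). Tgfb3 was 1.34-fold lower (1.24 to 1.45), and Tgfb1 1.03-fold lower (0.973 to 1.099), an interval that includes 1. Inha, the alpha subunit that turns activin subunits into inhibins, had 414 reads (7.22 RPKM) in the knockout library and 379 reads (6.49 RPKM) in the wild-type library, a ratio of 1.11 (0.966 to 1.28). Inhbb, the subunit of activin B, was below the expression filter with 57 reads in the knockout library and 99 in the wild-type library. Tgfb1, Tgfb3, Inha and Inhbb are named for their place in the pathway after their values were seen. The same holds for Acvr1c, Bmpr2, Wfikkn1, Wfikkn2, Fstl4, Nog, Grem1, Chrd, Ltbp2, Smad7, Skil, Cdkn1a and Pmepa1 below.

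Among 8 other receptors and co-receptors, 6 were expressed, 3 above 0 and 3 below, with a median of -0.002 and none past 1.5-fold on log2(RPKM + 1). The most abundant, the type I receptor Tgfbr1, which also serves myostatin, had 3713 reads in the knockout library and 3916 in the wild-type library, 1.04-fold lower (0.990 to 1.08). Tgfbr2, the type II receptor for TGF-beta and not for activins, differed most on log2(RPKM + 1), with 2761 reads in the knockout library and 4233 in the wild-type library, 1.51-fold lower (1.43 to 1.58). Acvr1c, the activin and nodal type I receptor ALK7, had 146 reads (0.410 RPKM) in the knockout library, against 366 reads (1.01 RPKM) in the wild-type library. Its reads were 2.46-fold lower (2.03 to 3.002), and its log2 ratio of RPKM + 1 was -0.51. It sits at the expression filter and passed it only through the wild-type library. Bmpr2, a type II receptor for BMPs, had 2059 reads in the knockout library and 1566 in the wild-type library, 1.34-fold higher (1.254 to 1.43). The 4 type I and type II receptor genes named here thus lay on both sides of 1, with Acvr1c farthest below and Bmpr2 above.

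Of 12 other antagonists and binding proteins, 6 were expressed, 2 above 0 and 4 below, with a median of -0.12. Only Dcn passed 1.5-fold on log2(RPKM + 1) among the expressed ones, on the lower side, against 1.44% of all expressed genes. Dcn, the matrix proteoglycan decorin, which can bind myostatin, had 3833 reads in the knockout library and 6053 in the wild-type library, 1.55-fold lower (1.49 to 1.61). It is also one of the fibroblast markers above. Among the expressed ones, Fstl4 and Nog were past 1.5-fold on the higher side by reads per library read. No share of all genes was computed for this measure. By it, 4 of the 12 genes lay higher in the knockout library and 8 lower. Grem1 had 10 reads in the knockout library and 42 in the wild-type library, 4.12-fold lower (2.04 to 9.22). Chrd had 42 in the knockout library and 88 in the wild-type library, 2.06-fold lower (1.41 to 3.05). Both were below 1 RPKM in both libraries. Fstl4, which carries a follistatin-like domain, had 782 reads in the knockout library and 518 in the wild-type library, a ratio of 1.54 (1.37 to 1.72). Nog, the BMP antagonist noggin, had 136 reads in the knockout library and 82 in the wild-type library, a ratio of 1.69 (1.28 to 2.25). The dedicated myostatin and Gdf11 antagonists were low: Wfikkn1 had 58 reads in the knockout library and 33 in the wild-type library, and Wfikkn2 had 121 in the knockout library and 180 in the wild-type library. They lay on opposite sides of 1, with ratios of 1.79 (1.15 to 2.83) for Wfikkn1 and 0.685 (0.539 to 0.867) for Wfikkn2. Wfikkn1 was below the expression filter, and Wfikkn2 passed it only through the wild-type library.

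The enzymes that cut the ligand precursors also lay on both sides, with 2 of 5 expressed genes above 0, 3 below, a median of -0.15 and none past 1.5-fold. Bmp1, a protease that frees myostatin from its propeptide and the most abundant of them, had 4227 reads in the knockout library and 5000 in the wild-type library, 1.16-fold lower (1.11 to 1.21). Pcsk5, a furin-type convertase known to act on Gdf11, had 2100 reads in the knockout library and 1495 in the wild-type library, 1.43-fold higher (1.34 to 1.53).

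**Figure D4:**
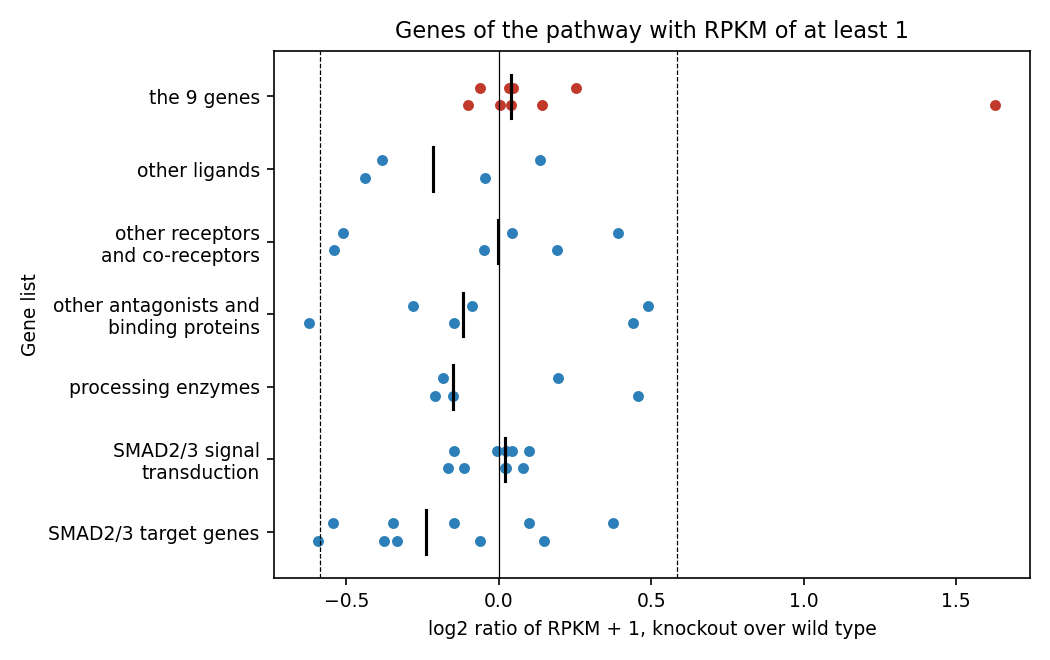
Log2 ratio of RPKM + 1, knockout over wild type, for each expressed gene of 7 lists, with the list median as a black bar and dashed lines at 1.5-fold; Mstn is the red point at 1.63. No other point lies past 1.5-fold on the higher side, and Dcn (-0.62) and Col1a1 (-0.59) lie past it on the lower side.

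All 10 expressed genes of 11 for SMAD2 and SMAD3 signal transduction lay within 1.3-fold, with 6 above 0, 4 below and a median of 0.02. This share is near that of all expressed genes, of which 90.3% lay within 1.3-fold. Smad4, the shared partner and the most abundant of them, had 3787 reads in the knockout library and 3738 in the wild-type library, a ratio of 1.03 (0.986 to 1.08). Nedd4l, a ubiquitin ligase for active SMAD2 and SMAD3, was the farthest, with 2781 reads in the knockout library and 3216 in the wild-type library, 1.14-fold lower (1.08 to 1.19).

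Of 10 expressed genes known as targets of SMAD2 and SMAD3, 3 lay above 0 and 7 below, with a median of -0.24. Over all expressed genes, 6386 of 12329 lay below 0 and the median was -0.01, and the difference was not tested. Col1a1, which encodes a fibrillar collagen chain, is the most abundant of them. It had 34120 reads in the knockout library and 52504 in the wild-type library, 1.51-fold lower (1.49 to 1.53). It was the only one past 1.5-fold on log2(RPKM + 1), where 1.44% of all expressed genes were at least 1.5-fold lower. Ltbp2, a matrix protein of elastic fibres, had 142 reads (0.539 RPKM) in the knockout library and 333 reads (1.24 RPKM) in the wild-type library. Its reads were 2.30-fold lower (1.89 to 2.82), with a log2 ratio of RPKM + 1 of -0.54. Ltbp2 passed the expression filter only through the wild-type library, so its place among the 7 below followed from the filter. It shares 10.9% of its 31-base words with other genes. The fast feedback inhibitors Smad7 and Skil were 1.08-fold (1.004 to 1.16) and 1.12-fold (1.06 to 1.19) higher in the knockout library. Cdkn1a, which encodes the cell cycle inhibitor p21, lay farthest above, 1.32-fold higher (1.21 to 1.44). Pmepa1, another feedback gene, was 1.298-fold (1.20 to 1.40) lower. The list holds Col1a1, a fibroblast marker, and fibroblast markers were lower in the same library; their part in this median was not tested.

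Markers of skeletal muscle were followed beside Mstn. Of 18 genes, 17 were listed, 8 with more reads per library read in the knockout library and 9 with fewer. Of the 8 expressed markers, 6 lay above 0 and 2 below on log2(RPKM + 1), with a median of 0.30. The summed level of all 17 listed markers was 322 RPKM in the knockout heart and 280 RPKM in the wild-type heart. Most of it came from Casq1, the calcium store protein, and Ckm, the muscle creatine kinase. Tnni2, fast troponin I, had 96.8 RPKM in the knockout heart, above Ckm at 75.1 RPKM, and 24.4 RPKM in the wild-type heart. Without Casq1 and Ckm the sum was 120 RPKM in the knockout heart and 40.9 RPKM in the wild-type heart. Without Tnni2 as well it was 22.8 RPKM in the knockout heart and 16.5 RPKM in the wild-type heart. Past 1.5-fold were 2 of the 8 expressed markers, both higher in the knockout library, against 1.52% of all expressed genes: Tnni2 had 3368 reads in the knockout library and 865 in the wild-type library, and Tnnt3, fast troponin T, had 309 in the knockout library and 151 in the wild-type library.

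The factors that define skeletal muscle cells were lower in the knockout library or near 0 in both. Myod1 had 2 reads in the knockout library, against 18 in the wild-type library, and Myog had 18 in the knockout library, against 41 in the wild-type library. Pax7 and Pax3, factors of muscle precursors, had 0 reads in the knockout library and 12 and 2 in the wild-type library, and Myf6 had 4 in the knockout library and 0 in the wild-type library.

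Contractile and calcium-handling markers lay on both sides. Beside Tnni2 and Tnnt3, the perinatal myosin Myh8 and the calcium pump Atp2a1 were 1.47-fold (1.23 to 1.75) and 1.47-fold (1.18 to 1.83) higher in the knockout library. The calcium channel subunit Cacna1s was 1.85-fold (1.31 to 2.63) higher at levels below 1 RPKM, and the fast myosin light chain Mylpf and the actinin Actn3 were 1.33-fold (1.103 to 1.60) and 1.19-fold (1.01 to 1.41) higher. Embryonic myosin Myh3 had 8 reads in the knockout library and 87 in the wild-type library, and fast troponin C (Tnnc2) had 0 in the knockout library and 10 in the wild-type library. The calcium release channel Ryr1 had 27 reads in the knockout library and 52 in the wild-type library, and Casq1 and Ckm were 1.07-fold (1.04 to 1.103) and 1.36-fold (1.304 to 1.41) lower. A count of 0 allows up to 3 reads, and the part of skeletal muscle cells in the Mstn value was not tested beyond these counts.

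**Figure D5:**
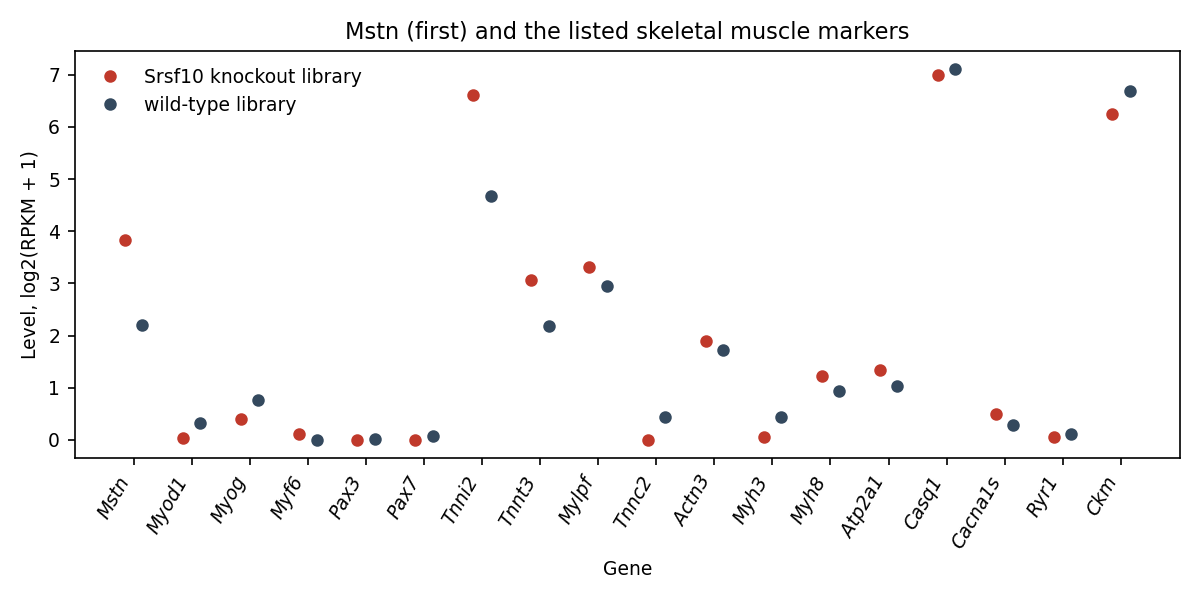
Level as log2(RPKM + 1) of Mstn and of the 17 listed skeletal muscle markers in the knockout library (red, left of each pair) and the wild-type library (dark, right). Mstn, Tnni2, Tnnt3, Mylpf, Actn3, Myh8, Atp2a1, Cacna1s and Myf6 are higher in the knockout library, Myod1, Myog, Pax3, Pax7, Tnnc2, Myh3, Ryr1, Casq1 and Ckm are lower there (Myf6 and Pax3 on at most 4 reads), and Ckm and Casq1 are high in both.

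The genes whose pair of levels lay nearest to that of Mstn, by Euclidean distance of log2(RPKM + 1) in the 2 libraries, were Cyp4f13, Adh6b, Ndufa4l2, Dynlt1a and Tmem100, at distances of 0.35, 0.50, 0.57, 0.64 and 0.68. Cyp4f13, a cytochrome P450, had 695 reads in the knockout library and 258 in the wild-type library, a ratio of 2.74 (2.38 to 3.18). The other 4 had ratios between 1.82 and 2.11. The set was selected on the high Mstn value, so smaller ratios in these genes are not a finding. Dynlt1a shares 86.4% of its 31-base words with other genes, so its value is uncertain.

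The protein-coding genes beside Mstn on chromosome 1, in GENCODE M21 order, had ratios on both sides of 1. Of the 4 on either side, 7 were listed. Hibch, Pms1 and Ormdl1 had ratios of 0.968 (0.878 to 1.07), 0.919 (0.793 to 1.06) and 0.959 (0.881 to 1.04), each with 1 in its interval. Inpp1 and Mfsd6 were 1.35-fold (1.17 to 1.55) and 1.15-fold (1.06 to 1.254) higher in the knockout library. The nearest gene on the upstream side, 1700019D03Rik on the opposite strand, had 98 reads in the knockout library and 50 in the wild-type library, a ratio of 1.997 (1.41 to 2.87) at levels below 1 RPKM. The nearest on the downstream side, 1700019A02Rik, had 1 read in the knockout library and 2 in the wild-type library. This comparison of neighbours was chosen after the data were seen.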

How the data were processed

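RNA from the heart of SRSF10-/- and WT mouse embryos was sequenced, 1 library a group, and each library was placed by its genotype label. The submitters' processing notes list Bowtie 0.12.2 and the build mm9. For the annotation, the read filters and whether counting used strand, nothing is stated in the sources used here. The authors deposited, per the file headers, counts of uniquely mapped reads per gene, the listed length, the percent of it covered, and RPKM scaled to that length and to all counted reads. No count below 1 is listed, so a gene present in 1 table only was given 0 reads in the other.

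Of 17646 listed genes, 17196 received a symbol by Ensembl identifier. Log2 ratios, knockout over wild type, were computed on RPKM + 1 (a pseudocount of 1, which understates the ratio of low genes) for the 12329 expressed genes, those reaching an RPKM of 1 in either library. Although the tables hold counts, no test across genes was run, since 1 library a group leaves no spread to estimate. Ratios of reads per library read carry exact conditional binomial (Clopper-Pearson) 95% intervals, and levels exact Poisson intervals. Genes at 0 were read against a floor of 3 reads. The genes and lists were chosen with earlier results of these data known. All 9 genes and Srsf10 were named, with, from each of the 6 other pathway lists, the most abundant gene, the one with the largest log2 ratio and those past 1.5-fold, the 5 genes nearest to Mstn, and skeletal muscle and Y-linked markers. The calculation was tested on simulated counts. Gene order and shared 31-base words came from GENCODE M21 on GRCm38, not the build of the files, and were matched by gene identifier. Python 3.11.15, pandas 2.3.3 and scipy 1.17.1 were used. Alternatives were other pseudocounts, filters, scalings, gene lengths and fold rules.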

Additional observations from a re-analysis of the deposited data

How the results depend on the processing

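The log2 ratio of Mstn was 1.85 with a pseudocount of 0.1, 1.09 with a pseudocount of 5 and 1.88 without a pseudocount, the last an alternative added after the data were seen. Under 3 rescalings, which moved the median of all genes by 0.01 to 0.02, it lay between 1.64 and 1.65. Mstn was the only one of the 9 genes past 1.5-fold under each pseudocount, filter, rescaling and fold rule tried, and no gene of the set changed sign under the 6 pseudocount and scaling settings. The median of the 9 genes stayed between 0.03 and 0.06. An RPKM of at least 5 kept 7 of the 9 genes. Over all genes, the counts of at least 1.5-fold higher and lower genes were 402 and 343 with a pseudocount of 0.1, 34 and 54 with 5, and 74 and 104 at an RPKM of at least 5, which tests fewer genes. A fold rule of 2 gave 26 higher and 41 lower, and a looser rule of 5/4 gave 857 and 860. The pseudocount therefore sets how large the Mstn log2 ratio reads, and at 385 reads in the wild-type library counting error alone spans 3.28 to 4.12 in its fold. No paired analysis was possible because each group holds 1 library, and no library could be left out.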

Other observations

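The length of Fstl3 covered by reads differed between the libraries although its read numbers did not. Its 345 reads covered 62.56% of the listed length in the knockout library, and its 350 reads 73.35% in the wild-type library, a difference of -10.79 percentage points. Among 1462 genes with 200 to 500 reads in both libraries, 5.54% differed by at least as much in either direction, and the median absolute difference was 2.38 points. Fst, Inhba and Acvr2b, in the same range of reads, differed by -2.31, -1.28 and 3.24 points. Fstl3 overlaps Prss57, a serine protease gene on the opposite strand, and shares 58.5% of its 31-base words with it. Prss57 had 11 reads in the knockout library and 21 in the wild-type library. How the authors counted reads over both genes is not given in the sources used here, so the level of Fstl3 is less certain than its interval shows.

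Co-factors and ligands of early embryonic nodal signalling were present only as traces. Nodal had 4 reads in the knockout library and 0 in the wild-type library, and Gdf3 had 7 in the knockout library and 0 in the wild-type library. Cfc1, a co-receptor of nodal, had 18 in the knockout library and 2 in the wild-type library, and shares 25.7% of its 31-base words with Prss40. Lefty1, a nodal antagonist, had 12 reads in the knockout library and 35 in the wild-type library, and shares 25.03% of its 31-base words with other genes. All were below 1 RPKM in both libraries.

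Markers of the other cell types that a heart sample can hold differed in several lists beside Mstn. Macrophage and leukocyte markers were higher in the knockout library in 5 of 5 expressed genes, beside 5943 of 12329 over all expressed genes. The markers summed to 51.7 RPKM in the knockout heart and 35.8 RPKM in the wild-type heart. Epicardial markers had 5 of 6 expressed genes above 0 and summed to 149 RPKM in the knockout heart and 127 RPKM in the wild-type heart. Endothelial markers summed to 182 RPKM in the knockout heart and 186 RPKM in the wild-type heart, with 3 of 5 genes above 0 and 2 below. Cldn5 was the farthest of them, 1.80-fold lower (1.49 to 2.18). Erythroid markers summed to 2785 RPKM in the knockout heart and 2984 RPKM in the wild-type heart, with 1 of 3 expressed genes above 0 and 2 below. Gata1, an erythroid marker below 1 RPKM in both libraries, was 2.46-fold higher (1.51 to 4.14). Hepatocyte markers summed to 0.816 RPKM in the knockout heart and 3.76 RPKM in the wild-type heart. Of the 4 listed, 3 had fewer reads per library read in the knockout library and 1 had more. Afp, the most abundant, had 4 reads in the knockout library and 145 in the wild-type library, 35.6-fold lower (13.6 to 132). Albumin (Alb) had 0 reads in the knockout library and 88 in the wild-type library. These 2 were the expressed ones and passed the filter only through the wild-type library. Both were at least 1.5-fold lower on log2(RPKM + 1), against 1.44% of all expressed genes. Ttr went the other way, with 34 reads (0.717 RPKM) in the knockout library and 22 (0.456 RPKM) in the wild-type library. Its ratio was 1.57 (0.894 to 2.83), an interval that includes 1. Ttr and Gata1 were named after their values were seen. The part of these lists in the values of the 9 genes was not tested.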
